A study of Homo sapiens with 9 samples.

Results

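The Eph receptors, ephrins, semaphorins, plexins and neuropilins were described across 3 related human breast epithelial cell lines. The genes were picked by symbol, with earlier results of these data known, and 53 of the 62666 genes in the deposited table matched: 14 Eph receptors, 8 ephrins, 20 semaphorins of classes 3 to 7, 9 plexins and 2 neuropilins. Of these, 42 passed the filter on low counts, which requires at least about 10 counts in a library of median size in 3 libraries and left 17910 genes for testing. The other 11 (EPHA3, EPHA5, EPHA6, EPHA7, EPHA8, EPHA10, EPHB1, EFNA2, SEMA3G, SEMA6D and PLXNA4) never exceeded 23 counts in any library, and EPHA7 had 0 counts in all 9.

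Ephrins are membrane-bound ligands, and their Eph receptors are receptor tyrosine kinases on the facing cell, so that signals pass both ways at a cell contact. Semaphorins are secreted or membrane-bound ligands that act through plexins, and most secreted class 3 semaphorins need a neuropilin as a co-receptor. These families were found as guidance cues of growing axons and are also known in epithelia, where they take part in cell adhesion, boundary formation and migration.

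Polyadenylated RNA was sequenced in 3 libraries of each line to follow gene expression during breast cancer progression. MCF10A cells are immortal but do not form tumours, MCF10AT1 cells carry activated HRAS and serve as a premalignant model, and MCF10Ca1a cells come from tumours grown from that lineage in mice and are malignant. Each stage is thus represented by 1 cell line, and the labels do not say whether its replicates were separate cultures, so p-values measure the spread between these libraries, which may be technical. All cells grew in DMEM/F12 with cholera toxin at 100 ng/mL, hydrocortisone at 500 ng/mL, EGF at 20 ng/mL, insulin at 10 µg/mL, 2 mM glutamine and 14 mM sodium bicarbonate. Horse serum was 5% for MCF10A and MCF10Ca1a but 2.5% for MCF10AT1, so serum and line cannot be told apart in comparisons with MCF10AT1.

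Totals ran from 62898823 to 69508842 counts in the MCF10A and MCF10AT1 libraries and from 32930503 to 35243012 in those of MCF10Ca1a. All 9 epithelial markers examined were present in every line, but some levels moved in either direction. In TPM (a share of all transcripts, corrected for length) KRT14 was at 176 to 241 in MCF10A, 36.9 to 39.7 in MCF10AT1 and 4.70 to 4.94 in MCF10Ca1a. EPCAM was at 36.8 to 42.4, 155 to 181 and 383 to 395 TPM. Summed markers of other cell types moved between lines, each mostly through 1 gene. The 7 fibroblast markers summed to 6.43 to 7.23 TPM in MCF10A, 27.7 to 31.5 in MCF10AT1 and 1.94 to 2.33 in MCF10Ca1a. DCN alone gave 26.6 to 30.4 TPM of the sum in MCF10AT1, while COL1A1 was highest in MCF10A and the other 5 stayed under 0.1 TPM. The 5 neural markers summed to 97.4 to 128, 31.5 to 35.7 and 92.6 to 98.02 TPM, nearly all from TUBB3. The 4 endothelial markers reached 15.7 to 20.8 TPM in MCF10Ca1a with CDH5 at 0, against at most 1.27 TPM elsewhere, and the 4 blood markers 7.58 to 9.41 TPM in MCF10A with CD3E at 0. Their part in the results was not tested. In bulk RNA, fewer expressing cells and less RNA per cell cannot be told apart.

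The families were expressed in all lines, but through a few members of each. The Eph receptors summed to 73.9 ± 15.2 TPM in MCF10A, 83.7 ± 0.30 in MCF10AT1 and 486 ± 6.10 in MCF10Ca1a (SD, n = 3 libraries here and throughout). EPHA2 made up 47.8%, 57.2% and 89.7% of these sums. The ephrins summed to 128 ± 17.4, 100.3 ± 1.88 and 119 ± 2.72 TPM, with EFNB2 the most abundant in MCF10AT1 and MCF10Ca1a. In MCF10A, EFNB1 at 41.3 ± 7.41 TPM and EFNB2 at 40.7 ± 7.02 TPM did not differ beyond their spread. Receptor and ligand levels thus moved unequally: the Eph sum was below the ephrin sum in all 6 libraries of MCF10A and MCF10AT1 and above it in the 3 of MCF10Ca1a. The semaphorins summed to 112 ± 18.2, 110.4 ± 2.26 and 199 ± 2.21 TPM, led by SEMA3C in MCF10AT1. The leading pair did not differ beyond its spread in MCF10A (SEMA4B at 31.9 ± 5.85 and SEMA3C at 30.96 ± 3.23 TPM) or in MCF10Ca1a (SEMA3B and SEMA3C). The plexins summed to 110.3 ± 9.32, 90.9 ± 7.09 and 128 ± 5.09 TPM, and the neuropilins to 32.4 ± 6.09, 39.99 ± 0.95 and 82.3 ± 1.77 TPM. These sums are per transcript length and carry no test. MCF10A replicate 1 had the highest sum of its line in every family, for example 90.3 TPM of Eph receptors against 71.2 and 60.2 TPM in replicates 2 and 3.

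**Figure D1:**
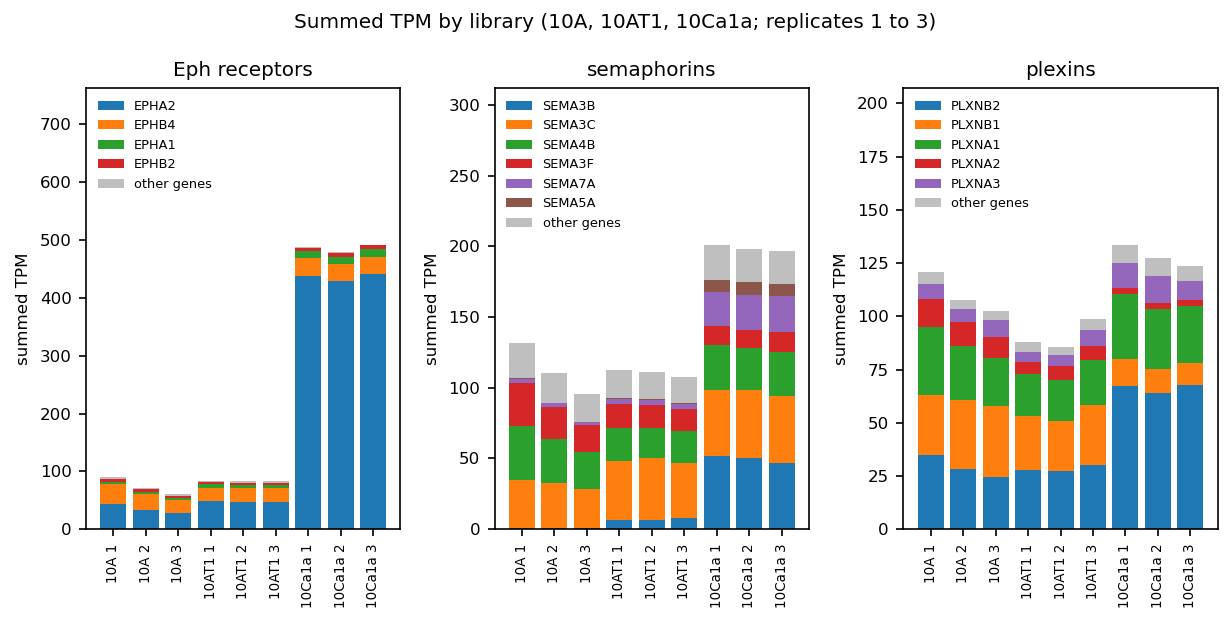
Stacked bars of summed TPM (from 0) for the Eph receptors, semaphorins and plexins in each of the 9 libraries, coloured by gene. EPHA2 fills most of the Eph bar in the MCF10Ca1a libraries (89.7% on average), where the sum reaches 480 to 492 TPM, and SEMA3B, SEMA7A and SEMA5A are visible mainly there.

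**Figure D2:**
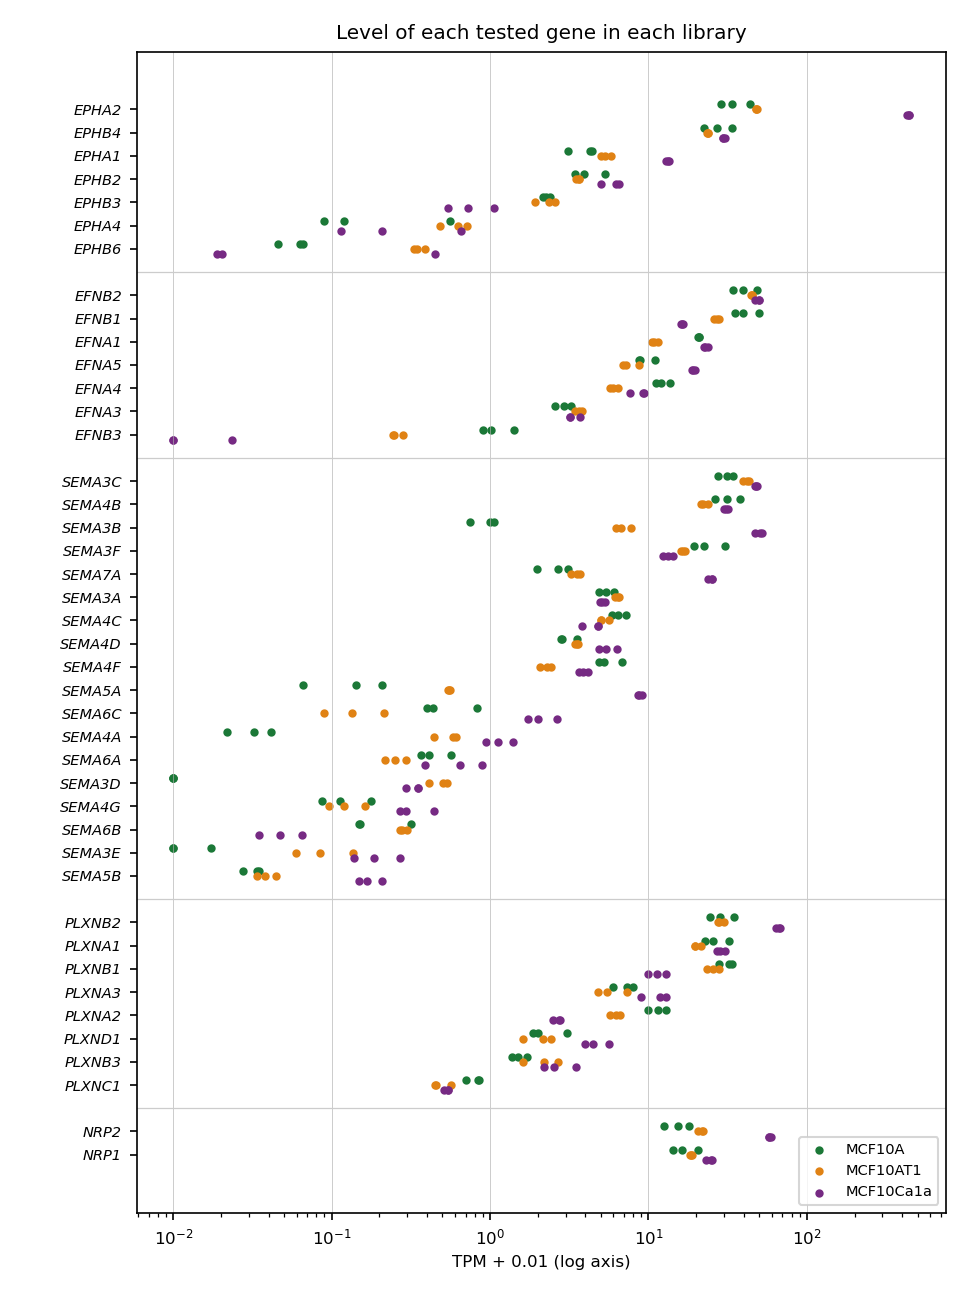
Level of each of the 42 tested genes in every library, as TPM + 0.01 on a log axis, by family and in order of mean level, with a colour for each line. Levels span from libraries at 0 (SEMA3D in MCF10A) to above 400 TPM (EPHA2 in MCF10Ca1a).

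In all, 3 comparisons were made: MCF10AT1 with MCF10A (the premalignant step), MCF10Ca1a with MCF10AT1 (the malignant step) and MCF10Ca1a with MCF10A. They share libraries and are not independent. At the premalignant step 19 members were higher, 14 lower and 9 not called at an adjusted p of 0.05 in edgeR's quasi-likelihood test. That is 78.6% of the members tested, beside 61.6% of all genes tested, of which 29.8% were higher and 31.8% lower. At the malignant step 20 were higher and 14 lower, or 81.0% beside 78.4% of all genes (38% higher, 40.3% lower). Between MCF10Ca1a and MCF10A, 19 were higher and 15 lower, or 81.0% beside 80.9% (39% higher, 41.9% lower). The members' shares at the malignant step and between the outer lines were near those of all genes, and the difference at the premalignant step was not tested. With a change of at least 2-fold required as well, 7 members were higher and 3 lower at the premalignant step (23.8% called beside 18% of all genes, of which 9.36% higher and 8.64% lower). At the malignant step 9 were higher and 7 lower (38.1% beside 37.7%, of which 18.2% and 19.5%), and between the outer lines 13 and 8 (50% beside 42.9%, of which 21.2% and 21.7%). The replicates of the lines compared did not overlap in CPM (counts scaled to the library total) for 33, 36 and 34 members, in the order of the comparisons above, beside 65.4%, 81.9% and 81.5% of all genes. The median member changed by 0.20, 0.25 and 0.12 on the log2 scale, beside -0.00, -0.04 and -0.05 over all genes tested.

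The direction split differed between the fit to counts and that to TPM, which differ in unit and test. On log2(TPM + 1), limma called 11 members higher and 13 lower at the premalignant step, 26 higher and 8 lower at the malignant step, and 23 higher and 11 lower between the outer lines. With edgeR on the deposited length-scaled counts the splits were 17 and 12, 21 and 11, and 21 and 13, and on the scaled counts 16 and 11, 20 and 10, and 19 and 12. The log2(TPM + 1) scale moved the median of all genes tested by -0.07, 0.13 and 0.06 (log2) in these comparisons. Log2 changes below come from the fit to counts.

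Over both steps, 8 members were higher each time (EPHA1, EPHA2, NRP2, SEMA3B, SEMA4A, SEMA4D, SEMA5A and SEMA7A), where 10.8% of all genes tested were. In turn 6 of the 42 were lower each time (EFNB1, EFNB3, PLXNA2, PLXNB1, SEMA3F and SEMA4C), beside 13% of all genes. A further 7 were higher and then lower (EFNA3, EPHA4, EPHB6, NRP1, SEMA3A, SEMA3D and SEMA6B), beside 13.8%, and 6 were lower and then higher (EFNA1, EFNA4, PLXNA1, SEMA4B, SEMA4F and SEMA6C), beside 12.7%. The remaining 15 were not called at both steps.

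**Figure D3:**
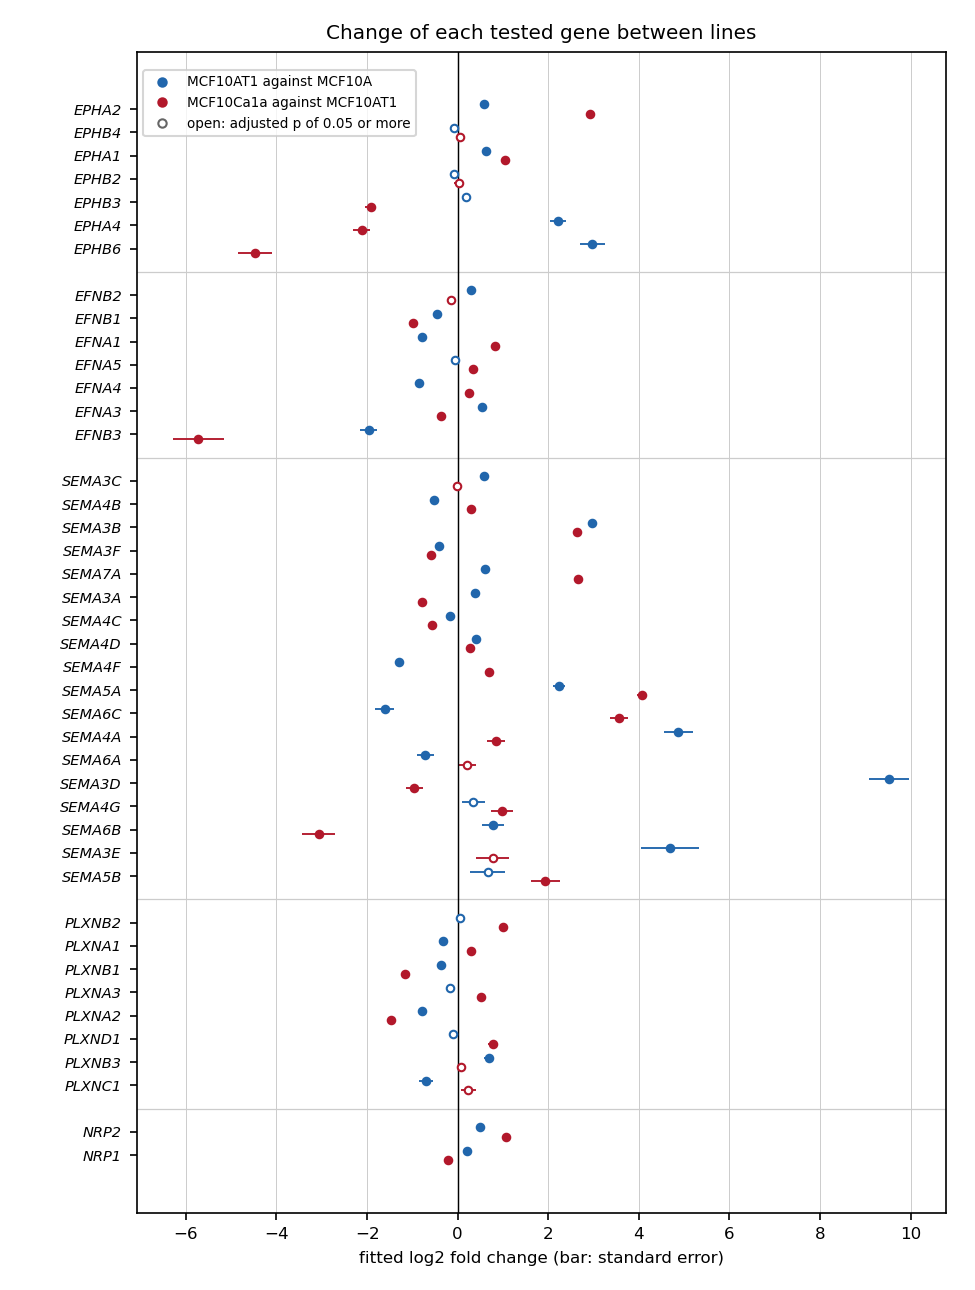
Fitted log2 fold change of each tested gene at the premalignant step (blue) and the malignant step (red), with its standard error, by family. Filled points passed an adjusted p of 0.05; EFNB3 and EPHB6 lie farthest to the left at the malignant step, and the SEMA3D point at the premalignant step rests on 0 counts in MCF10A and is not a measured fold.

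Promoter sequences are shown for 4 genes that the results below turn on: EPHA2 and SEMA5A, which rose at both steps, PLXNA2, which fell at both, and SEMA3D, which had no counts in MCF10A. Each is 250 bases before and 50 from a RefSeq start on GRCh38.p14, 5′ to 3′ on the gene's strand. Capitals mark matches on either strand to CACCTG (an E-box bound by SNAI and ZEB factors), TGANTCA (AP-1), GGGCGG (a GC box), TATAAA and GGAATG (TEAD), where neighbouring GC boxes may overlap.
EPHA2, chr1:16156020-16156319, minus strand: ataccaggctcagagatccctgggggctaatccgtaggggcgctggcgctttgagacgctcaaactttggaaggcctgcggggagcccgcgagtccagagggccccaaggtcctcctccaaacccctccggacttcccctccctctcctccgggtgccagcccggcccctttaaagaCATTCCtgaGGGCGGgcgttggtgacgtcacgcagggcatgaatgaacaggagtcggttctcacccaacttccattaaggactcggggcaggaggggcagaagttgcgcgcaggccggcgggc
SEMA5A, chr5:9546026-9546325, minus strand: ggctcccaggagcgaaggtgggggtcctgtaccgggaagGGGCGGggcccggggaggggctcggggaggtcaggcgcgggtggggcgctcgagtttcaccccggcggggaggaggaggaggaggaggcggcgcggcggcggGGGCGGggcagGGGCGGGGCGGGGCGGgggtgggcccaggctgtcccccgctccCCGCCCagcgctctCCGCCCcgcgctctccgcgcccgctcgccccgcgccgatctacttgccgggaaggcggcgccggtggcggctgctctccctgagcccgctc
PLXNA2, chr1:208244335-208244634, minus strand: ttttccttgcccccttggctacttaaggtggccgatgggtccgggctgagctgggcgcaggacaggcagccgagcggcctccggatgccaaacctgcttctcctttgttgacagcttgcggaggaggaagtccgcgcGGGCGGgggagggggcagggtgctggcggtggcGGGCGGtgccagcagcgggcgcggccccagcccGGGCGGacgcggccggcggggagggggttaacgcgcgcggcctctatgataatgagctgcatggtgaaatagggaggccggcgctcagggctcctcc
SEMA3D, chr7:85187007-85187306, minus strand: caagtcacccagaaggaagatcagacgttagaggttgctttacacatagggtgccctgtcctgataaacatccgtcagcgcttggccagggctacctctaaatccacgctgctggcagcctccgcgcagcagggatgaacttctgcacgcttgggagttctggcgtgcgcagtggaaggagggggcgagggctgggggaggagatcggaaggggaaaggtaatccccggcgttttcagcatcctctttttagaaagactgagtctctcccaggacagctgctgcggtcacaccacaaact
The EPHA2 window held 1 GC box and 1 TEAD match, that of SEMA5A 7 GC boxes, that of PLXNA2 3, and that of SEMA3D none of the 5 motifs. RefSeq had 74 windows for 47 of the 53 symbols. Among them 74.3% held GGGCGG, against 45.0% of all 35116 windows in that table. CACCTG was in 18.9% of the members' windows and 20.6% of all, TGANTCA in 1.4% and 7.7%, TATAAA in 4.1% and 11.5%, and GGAATG in 10.8% and 14.0%. A match describes letters, not binding.

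Among the Eph receptors, EPHA2 had the largest rise at the malignant step and between the outer lines. At the premalignant step EPHB6 and EPHA4 rose more than EPHA2, and EPHA1 about as much (log2 change 0.63 against 0.58). EPHA2, the main Eph receptor of many epithelia, lies at chr1:16124337-16156087 (GRCh38, minus strand). It had 9074, 7577 and 7468 counts in the MCF10A libraries, 12183, 12154 and 11285 in MCF10AT1, and 49417, 44963 and 50383 in MCF10Ca1a, although the last were sequenced less deeply. The lines did not overlap. In CPM its level was 122 ± 17.7, 183 ± 0.80 and 1380 ± 42.3. It was 1.5-fold higher at the premalignant step (log2 change 0.58 ± 0.08 SE, edgeR's adjusted p = 3.75e-05) and 7.55-fold higher at the malignant step (2.92 ± 0.09 SE, adjusted p = 2.42e-12).

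EPHA1, the only other A-type receptor above 1 TPM, followed the same order at a lower level. Its level was 3.90 ± 0.71, 5.38 ± 0.41 and 13.2 ± 0.28 TPM, and its log2 changes were 0.63 ± 0.09 SE and 1.04 ± 0.09 SE (edgeR's adjusted p = 3.16e-05 and 6.15e-08). EPHA1 overlaps ZYX on the opposite strand, and ZYX had 5232 to 10420 counts per library. The library kit marks strand, but the setting used in counting is not given in the sources used here.

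EPHB4, a receptor that prefers ephrin-B2, was the most abundant B-type receptor in every line. It had 95.1 ± 13.0, 90.3 ± 1.76 and 93.9 ± 1.33 CPM, and no comparison passed the test (log2 changes of -0.07 ± 0.08, 0.06 ± 0.08 and -0.02 ± 0.08 SE). Without MCF10A replicate 3 it was called lower at the premalignant step (log2 change -0.16), and on log2(TPM + 1) it was called higher at the malignant step (0.33). EPHB2 was not called either, at 18.6 ± 3.07, 17.7 ± 0.41 and 17.9 ± 0.55 CPM. In TPM it was 4.21 ± 0.99, 3.58 ± 0.09 and 5.90 ± 0.80, with no overlap between MCF10AT1 and MCF10Ca1a. On log2(TPM + 1) it was called higher in MCF10Ca1a, by 0.58 over MCF10AT1 and 0.42 over MCF10A, and likewise on length-scaled and scaled counts. A missed threshold does not show equal levels.

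EPHB3 was called lower at the malignant step and not called at the premalignant step. It had 476, 407 and 466 counts in the MCF10A libraries, 491, 538 and 484 in MCF10AT1, and 83, 70 and 62 in MCF10Ca1a. The log2 change of 0.19 ± 0.10 SE at the premalignant step did not pass (edgeR's adjusted p = 0.098; the call was made without MCF10A replicate 1, at 0.26), and at the malignant step the level was 3.78-fold lower (log2 change -1.92 ± 0.12 SE, adjusted p = 2.29e-09).

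EPHA4 and EPHB6, which lacks kinase activity, were highest in MCF10AT1. EPHA4 had 37, 24 and 37 counts in the MCF10A libraries, 155, 146 and 145 in MCF10AT1, and 20, 19 and 16 in MCF10Ca1a. It was 4.62-fold higher at the premalignant step (edgeR's adjusted p = 1.14e-07) and 4.35-fold lower at the malignant step (adjusted p = 1.82e-07), while the outer lines, at 0.49 ± 0.11 and 0.53 ± 0.06 CPM, did not differ beyond their spread. Neither EPHA4 call was made on length-scaled counts, scaled counts or log2(TPM + 1). The log2 changes there were 1.46, 1.45 and 0.38 at the premalignant step, beside 2.21 in counts. At the malignant step they were -1.22, -1.22 and -0.30, beside -2.12. EPHB6 had 11, 8 and 14 counts in the MCF10A libraries, 86, 81 and 90 in MCF10AT1, and 1, 4 and 1 in MCF10Ca1a. It was 7.86-fold higher at the premalignant step (adjusted p = 4.30e-07). The ratio of MCF10AT1 to MCF10Ca1a was 23.0, with a 95% counting interval of 10.4 to 63.4 (edgeR's adjusted p = 8.07e-08). The log2 change of -4.47 at this step was -1.48 on length-scaled counts, -1.50 on scaled counts and -0.24 on log2(TPM + 1), none of them called. Between the outer lines EPHB6 was lower in MCF10Ca1a in counts (ratio of MCF10A to MCF10Ca1a 2.90, interval 1.20 to 8.48) but higher on the length-scaled counts, scaled counts and TPM, where MCF10Ca1a rests on these few counts. None of those fits called it, nor did the fits to counts without MCF10Ca1a replicate 1 (-1.17) or replicate 3 (-1.18). Without MCF10Ca1a replicate 2, which held 4 of the 6 counts there, the fitted log2 change was -2.47 in place of -1.498 between the outer lines and -5.45 in place of -4.47 at the malignant step.

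Among the ephrins, 2 of the 3 B-type ligands fell along the series. EFNB3, at chr17:7705202-7711378, had 188, 145 and 148 counts in the MCF10A libraries, 39, 45 and 37 in MCF10AT1, and 1, 0 and 0 in MCF10Ca1a. It was 3.91-fold lower at the premalignant step (log2 change -1.97 ± 0.19 SE, edgeR's adjusted p = 1.06e-06). The ratio of MCF10AT1 to MCF10Ca1a was 65.1, with a counting interval of 11.5 to 2591. Leaving out each library in turn gave fitted log2 changes of -8.171 to -5.235 at the malignant step, in place of -5.723. EFNB3 was a minor ligand throughout, at 1.10 ± 0.27 TPM in MCF10A.

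EFNB1 and EFNB2, the more abundant B-type ligands, moved apart. EFNB1 fell from 108 ± 12.1 to 79.1 ± 1.62 and 39.7 ± 0.65 CPM, a log2 change of -0.45 ± 0.07 SE and then -0.995 ± 0.07 SE (edgeR's adjusted p = 6.06e-05 and 1.27e-08). EFNB2, the partner of EPHB4, rose by 0.30 ± 0.07 SE on the log2 scale at the premalignant step (adjusted p = 0.00227; not called on TPM) and was not called at the malignant step (-0.15 ± 0.07 SE, adjusted p = 0.072; called at -0.16 without MCF10A replicate 1 or replicate 3; 0.12 on log2(TPM + 1), not called).

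The A-type ephrins, which are tethered by a lipid anchor, were led by EFNA1, a ligand of EPHA2. EFNA1 had 1550, 1740 and 1948 counts in the MCF10A libraries, 1047, 961 and 945 in MCF10AT1, and 938, 891 and 1003 in MCF10Ca1a, or 26.3 ± 1.93, 15.1 ± 0.60 and 27.0 ± 1.13 CPM. It was 1.74-fold lower at the premalignant step (edgeR's adjusted p = 1.05e-07) and 1.78-fold higher at the malignant step (adjusted p = 3.39e-08). The outer lines overlapped in CPM but not in TPM, where EFNA1 was called higher in MCF10Ca1a (0.14 on log2(TPM + 1)). EFNA4 also fell and rose, by -0.86 ± 0.08 SE and 0.26 ± 0.09 SE on the log2 scale. The call of its rise was lost without a filter on low counts (0.17). It was also lost without MCF10AT1 replicate 1 (0.20) or MCF10Ca1a replicate 1 (0.22) or replicate 3 (0.20). EFNA3 went the other way, by 0.55 ± 0.09 SE and -0.37 ± 0.09 SE, the latter not called on TPM (-0.08 on log2(TPM + 1)). The former was not called on log2(TPM + 0.1) (0.31) or without a filter on log2(TPM + 1) (0.24). These 3 genes are neighbours on chromosome 1, with 9.3 kb from EFNA4 to EFNA3 and 39.9 kb from EFNA3 to EFNA1. A gene that overlaps both EFNA3 and EFNA4 on the same strand, AL691442.1, had 0 to 7 counts per library. EFNA3 and EFNA4 had counts that were not whole numbers (beyond a tolerance of 0.01) in 4 and 6 libraries, so their reads were in part divided by estimate, and their opposite changes are uncertain to that extent. The same holds for SEMA4D, PLXNB3 and SEMA3E in 4 libraries each and for EPHB3 in 1. EFNA5 was not called at the premalignant step and rose at the malignant step by 0.34 ± 0.07 SE (adjusted p = 5.89e-04). The size depended on the unit: in TPM its level was 9.49 ± 1.35, 7.59 ± 1.01 and 19.2 ± 0.50, and on log2(TPM + 1) it was called lower at the premalignant step (-0.29).

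Semaphorins held the largest measured rises. SEMA5A, a transmembrane semaphorin with thrombospondin repeats, lies at chr5:9035026-9546075 (GRCh38, minus strand). It had 46, 53 and 32 counts in the MCF10A libraries, 214, 197 and 198 in MCF10AT1, and 1854, 1675 and 1944 in MCF10Ca1a, with wide gaps between the lines. It was 4.72-fold higher at the premalignant step (log2 change 2.24 ± 0.14 SE, edgeR's adjusted p = 1.05e-08), 16.7-fold higher at the malignant step (4.06 ± 0.09 SE, adjusted p = 2.00e-13) and 78.7-fold higher between the outer lines. SEMA5B, its close relative, had only 4 to 17 counts per library and was 3.83-fold higher at the malignant step (adjusted p = 7.72e-05).

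SEMA3B, a secreted class 3 semaphorin known as a candidate tumour suppressor at 3p21, lies at chr3:50267558-50277546. It had 128, 141 and 125 counts in the MCF10A libraries, 958, 996 and 1069 in MCF10AT1, and 3634, 3229 and 3294 in MCF10Ca1a. It was 7.82-fold higher at the premalignant step (log2 change 2.97 ± 0.09 SE, edgeR's adjusted p = 9.02e-12) and 6.23-fold higher at the malignant step (2.64 ± 0.07 SE, adjusted p = 9.44e-13). At 49.7 ± 2.56 TPM it was the most abundant semaphorin of MCF10Ca1a, beside 47.5 ± 0.58 TPM for SEMA3C, and these neighbours in the order did not differ beyond their spread. SEMA3F, a class 3 relative that lies 78.5 kb away with 3 protein-coding genes between, went the other way, from 64.4 ± 9.23 to 48.1 ± 0.69 and 31.8 ± 2.24 CPM (log2 changes -0.42 ± 0.08 SE and -0.60 ± 0.09 SE, adjusted p = 6.11e-04 and 2.51e-05). Its call at the malignant step was lost on TPM (-0.29 on log2(TPM + 1)).

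SEMA7A, which is anchored by a lipid and also binds integrins, rose mainly at the malignant step. It had 465, 380 and 376 counts in the MCF10A libraries, 615, 664 and 546 in MCF10AT1, and 2021, 1992 and 2156 in MCF10Ca1a. It was 1.52-fold higher at the premalignant step (edgeR's adjusted p = 7.87e-05) and 6.29-fold higher at the malignant step (log2 change 2.65 ± 0.09 SE, adjusted p = 4.35e-12).

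**Figure D4:**
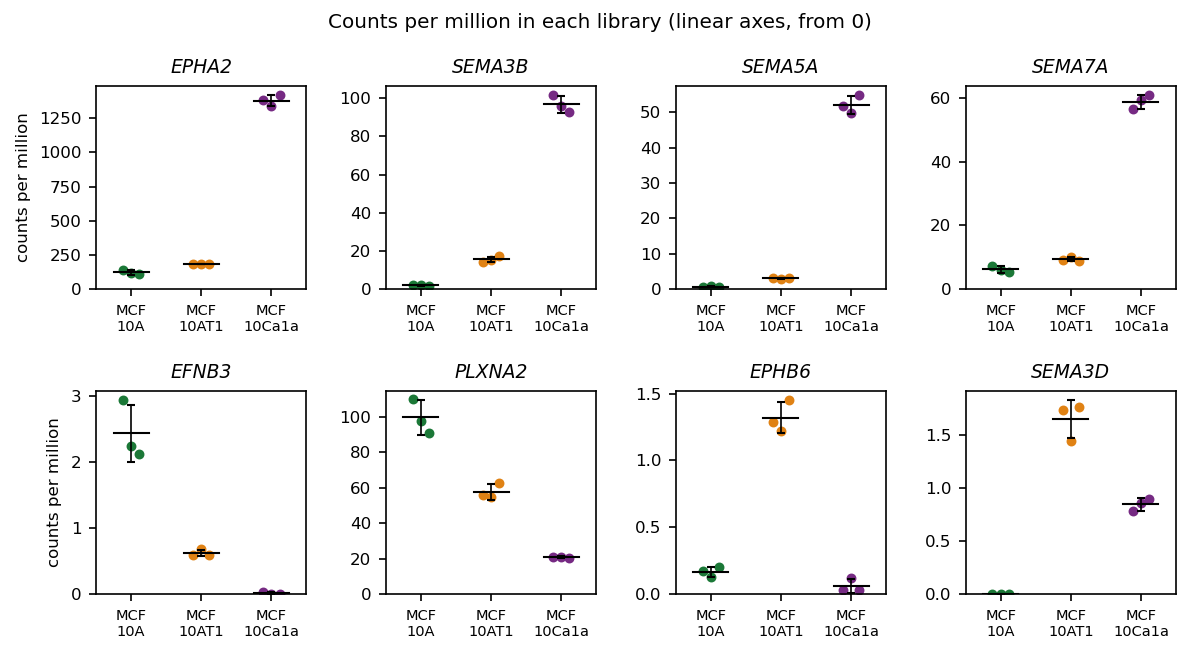
CPM in each library (points, linear axes from 0), with the mean (line) and SD (bar) over 3 libraries, for 8 genes. EPHA2, SEMA3B, SEMA5A and SEMA7A are highest in the MCF10Ca1a libraries, EFNB3 and PLXNA2 are highest in MCF10A, and EPHB6 and SEMA3D are highest in MCF10AT1.

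SEMA3D, SEMA4A and SEMA3E were nearly silent in MCF10A and present in both derived lines. SEMA3D, at chr7:84995553-85186855, had 0, 0 and 0 counts in the MCF10A libraries, 116, 96 and 110 in MCF10AT1, and 28, 29 and 32 in MCF10Ca1a. Taking 3 counts per library as the limit that a count of 0 allows, it was at least 36.4-fold higher in MCF10AT1 and at least 18.7-fold higher in MCF10Ca1a than in MCF10A. It was 1.94-fold lower at the malignant step (log2 change -0.96 ± 0.19 SE, edgeR's adjusted p = 5.98e-04), a call not made on scaled counts (-0.84). SEMA4A had 1, 2 and 6 counts in the MCF10A libraries, 89, 84 and 97 in MCF10AT1, and 97, 85 and 80 in MCF10Ca1a. The ratio of MCF10AT1 to MCF10A was 30.6 (95% counting interval 15.9 to 67.6). Replicate 3 held most of the MCF10A counts, and without it the fitted log2 change was 5.76 in place of 4.87. The level rose a further 1.80-fold at the malignant step (adjusted p = 0.00108). SEMA3E had 0, 0 and 2 counts in MCF10A and 13 to 28 in the other libraries. It was not called at the malignant step (adjusted p = 0.0646) but was called higher without MCF10AT1 replicate 2 (1.03), in the fit to the 2 lines compared (0.79) and on TPM. SEMA3E, SEMA3A and SEMA3D lie in a row on chromosome 7 with no protein-coding gene between, 307 kb and 503 kb apart. SEMA3A, the middle gene, differed from its neighbours: it was already at 18.6 ± 1.53 CPM in MCF10A and had log2 changes of 0.38 ± 0.06 SE (not called on TPM, 0.20) and -0.79 ± 0.07 SE.

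SEMA6C, a transmembrane semaphorin, was lowest in MCF10AT1. It had 65, 71 and 89 counts in the MCF10A libraries, 33, 23 and 16 in MCF10AT1, and 161, 158 and 140 in MCF10Ca1a. It was 3.06-fold lower at the premalignant step (edgeR's adjusted p = 1.83e-05) and 11.8-fold higher at the malignant step (adjusted p = 1.20e-09). SEMA4F had the same order of changes, 2.47-fold lower and then 1.62-fold higher (adjusted p = 5.69e-09 and 2.92e-06). SEMA6B was called higher (0.78 ± 0.25 SE, adjusted p = 0.0139) and then lower. The rise was lost without MCF10A replicate 2 (0.64) or replicate 3 (0.66), in DESeq2 and on the other units, and SEMA6B ended at 2, 4 and 3 counts in MCF10Ca1a, from 52, 47 and 45 in MCF10AT1. The last semaphorins tested were low in every line: SEMA6A fell by -0.71 ± 0.18 SE on the log2 scale at the premalignant step (adjusted p = 0.00393) and was not called at the malignant step. On log2(TPM + 1) the first of these was not called (-0.21) and SEMA6A was higher at the malignant step (0.38). SEMA4G, which overlaps MRPL43 on the opposite strand, was not called at the premalignant step and rose by 0.98 ± 0.25 SE at the malignant step (adjusted p = 0.00233).

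Other abundant semaphorins moved less. SEMA3C had 66.8 ± 4.83, 99.9 ± 3.86 and 99.3 ± 2.71 CPM, a rise of 0.58 ± 0.06 SE on the log2 scale at the premalignant step (edgeR's adjusted p = 1.20e-06) with no call at the malignant step. SEMA4B had 85.0 ± 11.9, 59.5 ± 1.12 and 72.71 CPM, lower and then higher, the rise (0.29 ± 0.08 SE) not called on length-scaled (0.17) or scaled counts (0.18). SEMA4C was called lower at both steps, at -0.16 ± 0.06 SE and -0.57 ± 0.07 SE. Its call at the premalignant step (adjusted p = 0.0411) was lost when any 1 library but MCF10A replicate 3 or MCF10AT1 replicate 1 was left out, with log2 changes of -0.16 to -0.11, and also in DESeq2, without a filter, on thinned counts and on the other units. Its call at the malignant step was lost on TPM (-0.19 on log2(TPM + 1)). SEMA4D, the ligand of plexin-B1, rose at both, by 0.41 ± 0.08 SE and 0.27 ± 0.08 SE, but was not called on TPM at the premalignant step (0.16) or without a filter at the malignant step (0.18).

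Among the plexins, PLXNB1 fell and PLXNB2 rose. PLXNB1, the receptor of SEMA4D at chr3:48403854-48430051, had 6431, 6912 and 7419 counts in the MCF10A libraries, 5343, 5071 and 5408 in MCF10AT1, and 1359, 1218 and 1209 in MCF10Ca1a. It was 1.29-fold lower at the premalignant step and 2.25-fold lower at the malignant step (log2 changes -0.36 ± 0.06 SE and -1.17 ± 0.06 SE, edgeR's adjusted p = 1.14e-04 and 6.08e-10). The call at the premalignant step was not made on length-scaled or scaled counts. PLXNB2, a related receptor of class 4 semaphorins, went from 168 ± 22.8 and 174 ± 8.26 CPM to 350 ± 13.8 CPM, 2.01-fold higher at the malignant step (adjusted p = 5.72e-08). Its share of B-type plexin TPM was 50.6% ± 1.40 in MCF10AT1 and 82.5% ± 2.09 in MCF10Ca1a. In MCF10A, PLXNB1 at 31.3 ± 2.87 TPM and PLXNB2 at 29.2 ± 5.24 TPM did not differ beyond their spread. PLXNB3, the least abundant B-type plexin, rose by 0.69 ± 0.10 SE at the premalignant step (adjusted p = 4.73e-05; not called on TPM, 0.31) and was not called at the malignant step.

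Of the A-type plexins, which pair with neuropilins for class 3 ligands, PLXNA2 fell most. PLXNA2, at chr1:208022242-208244320, had 7056, 6325 and 6325 counts in the MCF10A libraries, 3702, 3612 and 3890 in MCF10AT1, and 755, 710 and 714 in MCF10Ca1a. It was 1.73-fold and then 2.77-fold lower (log2 changes -0.79 ± 0.07 SE and -1.47 ± 0.08 SE, edgeR's adjusted p = 4.77e-07 and 6.73e-10). PLXNA1 was the most abundant of them and moved little, at 206 ± 21.2, 166 ± 11.9 and 202 ± 10.1 CPM. PLXNA3 and PLXND1 were not called at the premalignant step (PLXNA3 was called lower, at -0.27, without MCF10AT1 replicate 3) and rose at the malignant step, by 0.52 ± 0.08 SE and 0.78 ± 0.10 SE on the log2 scale (adjusted p = 4.47e-05 and 5.80e-06). PLXNC1, the receptor of SEMA7A, was low, at 0.79 ± 0.08, 0.48 ± 0.06 and 0.52 ± 0.02 TPM, in all lines including MCF10Ca1a with its high SEMA7A.

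Both neuropilins were well expressed, and NRP2 alone rose at both steps. NRP2, at chr2:205681990-205798133, had 5009, 4230 and 4135 counts in the MCF10A libraries, 6363, 6161 and 6062 in MCF10AT1, and 7099, 6507 and 7233 in MCF10Ca1a. It was 1.41-fold and then 2.08-fold higher (log2 changes 0.50 ± 0.08 SE and 1.06 ± 0.08 SE, edgeR's adjusted p = 1.05e-04 and 2.53e-08). NRP1 was at 63.9 ± 8.71, 74.3 ± 1.95 and 64.1 ± 2.15 CPM. Its log2 change at the malignant step was -0.21 ± 0.08 SE in counts (adjusted p = 0.0242) but 0.37 on log2(TPM + 1), so the direction flipped with the unit, as it did on the length-scaled and scaled counts. At the premalignant step it was called higher (0.22 ± 0.08 SE, adjusted p = 0.0266), but the lines overlapped and the call was lost without MCF10A replicate 2 or 3 or MCF10AT1 replicate 1 or 3 (0.13 to 0.22). At the malignant step the call was lost without MCF10AT1 replicate 1 or MCF10Ca1a replicate 1 or 2 (-0.21 to -0.20).

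The transcripts of both neuropilins were used differently in MCF10Ca1a. Usage was tested as the share of a transcript in its gene's counts, with limma over 11153 genes with at least 2 transcripts, of which 30 were members. At the premalignant step 2 members were called (SEMA3F and NRP2), beside 10.3% of all genes tested for usage. At the malignant step 11 were called, beside 43.4%, and 11 between the outer lines, beside 50.4%. The members' shares, near or under the background, give no result about the families as such. NRP2 had the smallest p among members at the malignant step and between the outer lines (limma's adjusted p = 4.02e-04 and 1.81e-04), and NRP1 was called in both as well (adjusted p = 0.00238 and 8.18e-04). Within NRP2 the smallest p was that of NRP2-201 in both comparisons. Within NRP1 it was that of NRP1-212 at the malignant step and of NRP1-206 between the outer lines.

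The sequences at the coding ends show what separates some NRP1 and NRP2 transcripts, NRP1-212 not among them. The short NRP1 forms, known as soluble neuropilin-1, stop before the membrane anchor. The sequences are from GENCODE 29 (GRCh38), 5′ to 3′, with 30 shared coding bases in lower case and the bases from the first difference from the transcript compared in capitals. In NRP1-203 these include bases of a later exon that both transcripts hold.
NRP1-206, against NRP1-204: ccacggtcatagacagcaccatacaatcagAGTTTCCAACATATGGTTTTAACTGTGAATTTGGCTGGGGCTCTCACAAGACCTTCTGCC
NRP1-204, against NRP1-206: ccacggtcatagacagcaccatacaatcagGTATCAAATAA
NRP1-203, against NRP1-206: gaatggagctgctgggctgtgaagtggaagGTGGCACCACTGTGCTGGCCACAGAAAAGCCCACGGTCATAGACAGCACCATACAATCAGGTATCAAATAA
NRP2-203, against NRP2-201: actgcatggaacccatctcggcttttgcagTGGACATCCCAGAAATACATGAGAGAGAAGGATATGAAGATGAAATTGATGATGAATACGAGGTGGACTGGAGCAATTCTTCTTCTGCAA
NRP2-201, against NRP2-203: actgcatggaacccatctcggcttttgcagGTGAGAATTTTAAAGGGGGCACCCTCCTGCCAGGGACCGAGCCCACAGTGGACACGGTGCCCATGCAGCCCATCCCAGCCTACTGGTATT
NRP2-206, against NRP2-203: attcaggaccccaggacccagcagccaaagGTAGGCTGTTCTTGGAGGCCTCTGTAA
NRP1-204 shares its first 641 codons with the full-length NRP1-206 of 923 codons, then reads 11 bases of its own that end in the stop TAA, for 644 codons in all. NRP1-203 leaves after 586 shared codons, skips an exon and ends with the same bases and at the same stop, on the minus strand of chromosome 10 with its last base at 33197639, for 609 codons. NRP2-203 and NRP2-201 share 808 codons and then differ to their ends (296 own bases in NRP2-201, 356 in NRP2-203, of which 90 are shown). They code for the known NRP2a-type and NRP2b-type membrane and cytoplasmic ends. NRP2-206 stops after 555 codons, 27 bases beyond its last shared base.

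Counts were then summed over transcripts that share a stop codon, a summary chosen after the transcript values were seen and given without a test. Counts grow with transcript length, so these shares are not shares of molecules. In GENCODE 29, NRP1-203 and NRP1-204 have 1988 and 2213 bases and NRP1-206 has 5877, while NRP2-206 has 2386 and NRP2-204 has 6662. The early NRP1 stop of NRP1-203 and NRP1-204 took 0.53%, 0.66% and 1.52% of NRP1 counts in the MCF10A libraries, 0.98%, 2.84% and 1.89% in MCF10AT1, and 21.2%, 17.8% and 20.9% in MCF10Ca1a. The MCF10Ca1a libraries stood apart from the other 6. In estimated counts this was 25.1 to 59.4 in MCF10A, 50 to 137 in MCF10AT1 and 374 to 494 in MCF10Ca1a. The full-length stop took 97.8% ± 0.63, 96.3% ± 1.08 and 74.8% ± 1.87 of the counts in the same order of lines. A further early stop, that of NRP1-212, went from 0.87% ± 0.12 and 0.97% ± 0.12 to 3.29% ± 0.19.

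In NRP2, the stop shared by NRP2-201 and NRP2-202 took 23.7%, 24.4% and 26.1% of the counts in the MCF10A libraries, 26.0%, 25.8% and 25.9% in MCF10AT1, and 40.5%, 41.8% and 41.0% in MCF10Ca1a. The stop of NRP2-203, NRP2-204 and NRP2-205 fell correspondingly, from 71.7% ± 1.57 and 67.2% ± 0.67 to 49.2% ± 0.09. NRP2-206, which lacks the membrane anchor, took 1.74% ± 0.14, 3.25% ± 0.27 and 6.06% ± 0.92. The 3 lines did not overlap in the share of NRP2-206.

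**Figure D5:**
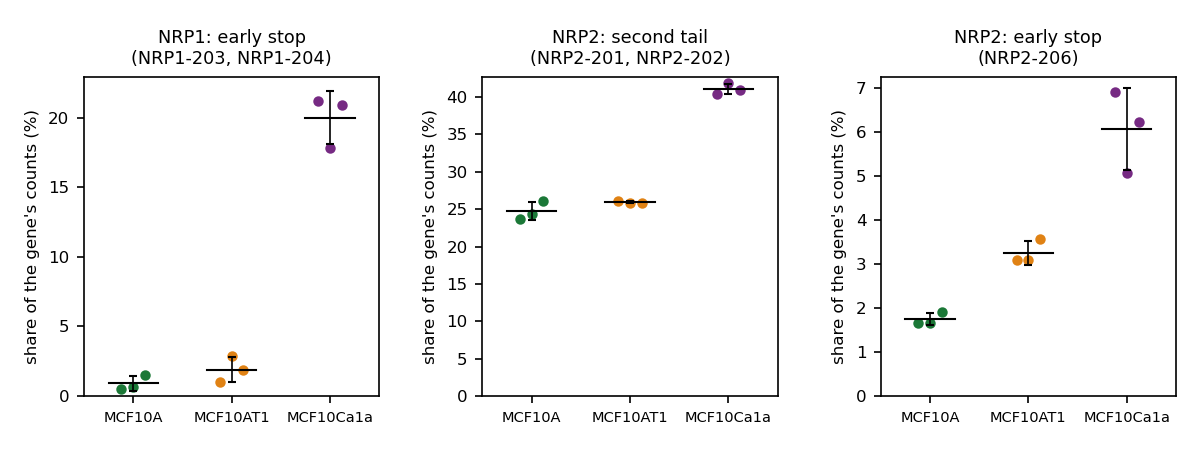
Share of a neuropilin gene's estimated counts (percent, not corrected for transcript length, linear axes from 0) from transcripts that share a stop codon, in each library (points) with the mean and SD over 3 libraries. The early NRP1 stop lies between 17.8% and 21.2% in MCF10Ca1a and under 3% elsewhere, the NRP2-201 and NRP2-202 stop near 41% against 23.7% to 26.1%, and NRP2-206 at 5.07% to 6.90% against 1.66% to 3.56%.

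Some other members changed in usage as well. The main SEMA3A transcript, SEMA3A-201, took 80.8% ± 3.81, 82.3% ± 1.60 and 64.0% ± 2.88 of the counts, with SEMA3A-204 taking nearly all of the rest. SEMA3F-201 took 82.1% ± 1.88, 69.5% ± 1.36 and 77.6% ± 1.74, and EFNA5-201 93.7% ± 0.70, 95.1% ± 2.91 and 83.03% ± 0.65. EPHA2-201 stayed above 99% in every library, though EPHA2 was called for usage between the outer lines (limma's adjusted p = 0.0464). In EPHB2, EPHB2-202 was at 0 in replicate 3 of every line and at 26.4% to 31.9% in the other libraries, while EPHB2-204 was at 23.8% to 32.1% in replicate 3 and at most 4.05% elsewhere, so their shares were not read. EPHB2 was still called for usage at the malignant step and between the outer lines (limma's adjusted p = 0.00185 and 0.00132). The smallest p was that of another transcript, whose log2 ratio to the rest of the gene was higher in MCF10Ca1a by 7.27 and 7.37.

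Genes that act with these families were described from 3 lists drawn from general knowledge of the pathways. Among 41 tested partners of Eph and ephrin signalling, 12 were higher and 16 lower at the premalignant step (68.3% called), 18 and 16 at the malignant step (82.9%), and 23 and 17 between the outer lines (97.6%), beside 61.6%, 78.4% and 80.9% of all genes, with medians of -0.07, 0.04 and 0.17 on the log2 scale. GRB7, an adaptor of receptor tyrosine kinases, rose from 6.27 ± 0.25 to 10.2 ± 0.22 and 60.2 ± 2.06 CPM, and ABL2, a tyrosine kinase downstream of Eph receptors, from 50.5 ± 2.65 and 60.9 ± 2.83 to 268 ± 7.30 CPM. FYN, a Src-family kinase, was at 2.34 ± 0.30, 5.94 ± 0.05 and 0.24 ± 0.02 CPM, and SAMD5 went from 4.22 ± 0.65 to 0.30 ± 0.09 and 0.0094 ± 0.016 CPM.

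Among 40 tested partners of plexin signalling, 10 were higher and 16 lower at the premalignant step (65.0% called), 17 and 18 at the malignant step (87.5%), and 15 and 22 between the outer lines (92.5%), beside the same shares of all genes (61.6%, 78.4% and 80.9%), with medians of -0.06, -0.05 and -0.24. ERBB2, a receptor kinase that binds B-type plexins, was 41.7 ± 7.28, 41.1 ± 1.20 and 95.02 ± 2.80 CPM. SH3BP1, a Rac regulator downstream of semaphorins, rose from 9.87 ± 1.08 to 23.9 ± 0.86 and 38.1 ± 1.97 CPM, while NRCAM, an adhesion molecule that associates with neuropilins, fell from 17.4 ± 2.24 to 0.87 ± 0.16 CPM at the premalignant step and was at 0.62 ± 0.10 CPM in MCF10Ca1a. MRAS, a small GTPase, was 5.52 ± 0.15, 4.83 ± 0.18 and 0.12 ± 0.03 CPM.

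Among 28 tested genes of other guidance systems, 14 were higher and 9 lower at the premalignant step (82.1% called), 11 and 14 at the malignant step (89.3%), and 10 and 16 between the outer lines (92.9%), where 61.6%, 78.4% and 80.9% of all genes were called, with medians of 0.30, -0.59 and -0.40. UNC5B, a netrin receptor, rose from 11.6 ± 1.83 to 18.0 ± 1.19 and 122.8 ± 0.63 CPM. NTN4, a netrin, rose from 12.6 ± 1.65 to 45.5 ± 1.12 CPM at the premalignant step and was at 48.01 ± 1.02 CPM in MCF10Ca1a. FLRT2, an adhesion molecule that binds UNC5 receptors, fell from 51.1 ± 4.94 to 9.78 ± 0.22 and 0.38 ± 0.17 CPM. SLIT2, a ligand of ROBO receptors, fell at the premalignant step and rose at the malignant step, at 17.4 ± 1.85, 6.66 ± 0.42 and 22.2 ± 1.56 CPM.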

How the data were processed

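Estimated counts and TPM per gene and per transcript were used as the authors deposited them, for 3 libraries of each of 3 lines. The submitters' processing notes name Salmon and hg38. Versions, the annotation and the strand setting are not given in the sources used here. The deposited estimated counts were rounded, and genes were kept with edgeR's filterByExpr (minimum count 10, minimum total 15). Genes were tested by edgeR's quasi-likelihood method (edgeR 4.0.16, R 4.3.3) with TMM scaling, all 9 libraries in 1 fit and Benjamini-Hochberg adjustment at 0.05 over all genes tested. Each standard error was the absolute log2 change divided by the root of F, and CPM used TMM-scaled totals (factors 0.978 to 1.02). Where a line had 0 counts in all libraries, folds were set against 3 counts per library; where it had few, ratios of summed counts carry exact 95% intervals. Bounds and intervals reflect counting error alone, as no molecular identifiers were used.

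Transcript usage was tested with limma 3.58.1 on the log2 ratio of a transcript's counts to those of the rest of its gene (0.5 added to each, mean of at least 10 counts), with a Simes p per gene. Uncertainty of assigning reads to transcripts was not used. Positions and coding ends are from GENCODE 29 on GRCh38, matched by unversioned identifiers, and promoter windows are from RefSeq. The annotation of the files is of another release in part.

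The members, lists and tests were chosen with earlier results of these data known. Members were named as the 5 largest rises and falls per comparison (adjusted p under 0.05, 50 or more counts on average in the line with more, no overlap between lines), the most abundant members of each family, those near 0 in 1 line, those moving the same way at both steps and the smallest usage p; others are named with their values to account for them. In each list the 2 largest rises and falls per comparison were candidates. Alternatives were DESeq2 1.42.0 size factors and its Wald test, no filter, the deposited length-scaled and scaled counts, a replicate block, limma on log2(TPM + 1) and log2(TPM + 0.1), counts thinned to the total of the shallowest library, fits to just the pair of lines compared, and the omission of each library. Tested members were refitted under each alternative that kept them. The tests were tested on simulated data with 200 changed genes.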

Additional observations from a re-analysis of the deposited data

How the results depend on the processing

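Calls of members held in number under most alternatives. In the TPM fits (log2(TPM + 1), log2(TPM + 0.1) and log2(TPM + 1) without a filter), members higher at the premalignant step numbered 11, 11 and 8 against 19 in counts, and members lower at the malignant step 8, 9 and 8 against 14. Leaving out each library in turn gave 17 to 21 members higher and 13 to 16 lower at the premalignant step, 19 to 21 and 13 to 15 at the malignant step, and 19 to 20 and 14 to 16 between the outer lines. Members with changed usage at the premalignant step numbered 2, but 4 with a pseudocount of 5 counts and 4 on transcript TPM. Without each library they numbered 1 to 3 (1 without MCF10AT1 replicate 1 or replicate 3). At the malignant step they numbered 11, but 7 with transcripts at a mean of 50 counts, and 7 to 11 without each library (7 without MCF10AT1 replicate 1). The cause was not tested.

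The labels do not say that equal replicate numbers mark paired libraries, and the 9 correlations of gene-level deviations from the line means ran from -0.060 to 0.045. EPHB2-202 and EPHB2-204 did differ by replicate number in all lines. With the replicate number as a block, usage calls were 1 at the premalignant step and 7 at the malignant step, and the counts of members higher and lower did not move at any step (19 and 14, 20 and 14, 19 and 15).

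The 42 tested members were refitted under each alternative that kept them (20 alternatives for most, 18 or 19 for SEMA3E, SEMA5B and, between the outer lines, EPHB6), and 5 changes that were called in counts or under the alternative took the other sign. The NRP1 log2 change at the malignant step (-0.21 in counts) was 0.10 on length-scaled and 0.11 on scaled counts, 0.37 on log2(TPM + 1) with and without the filter, and 0.39 on log2(TPM + 0.1). SEMA3C at the malignant step (-0.0091, not called) was called higher at 0.19 on log2(TPM + 1) and 0.20 on log2(TPM + 0.1). EPHB6 between the outer lines (-1.498) was 1.44 on length-scaled and 1.502 on scaled counts, 0.12 on log2(TPM + 1) with and without the filter, and 0.33 on log2(TPM + 0.1), none of them called. EPHB2 between the outer lines (-0.053, not called) was called higher at 0.34 on length-scaled counts, 0.35 on scaled counts, 0.42 on log2(TPM + 1) with and without the filter, and 0.49 on log2(TPM + 0.1). SEMA6A there (-0.50) was 0.37 on length-scaled and 0.36 on scaled counts, 0.17 on log2(TPM + 1) with and without the filter, and 0.39 on log2(TPM + 0.1), not called. Other changes that were not called in counts also took either sign, for example EFNB2 at the malignant step, from -0.23 (called, without a filter) to 0.12 (not called, on log2(TPM + 0.1)). Depth limits what can be seen of EFNB3, EPHB6 and SEMA6B in MCF10Ca1a, where no library held more than 4 counts of them.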

Other observations

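Among the 11 members that were too low for testing, EPHA5 had 23, 12 and 7 counts in the MCF10A libraries, 2, 2 and 3 in MCF10AT1, and 0, 1 and 0 in MCF10Ca1a. EPHA10, which is thought to lack kinase activity, had 9, 3 and 13 counts in MCF10A and 0 in all 6 other libraries. EPHA6 had 8, 5 and 7 counts in MCF10A and at most 6 elsewhere. These values are near the limit of detection, and none of the 11 passed the filter in the fit to the unscaled counts of all 9 libraries.

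Overlapping genes on the opposite strand were also expressed for other members: SLC12A9 had 654 to 1544 counts beside EPHB4, LAGE3 354 to 568 beside PLXNA3, CEP83 684 to 2045 beside PLXNC1, and MRPL43 1728 to 3677 beside SEMA4G, which itself had 23 to 43. Their part in these members' counts was not tested.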
